A study of Mus musculus with 84 samples.

Results

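Control cultures on the way from mouse embryonic fibroblast (MEF) to induced pluripotent stem (iPS) cell were compared at day 7 and day 5. The members are the RNA libraries of the shLuc arm at these days, 2 at day 7 and 2 at day 5, which are 4 of the 84 samples of the series. They were chosen by their labels, and replicate number 1 or 2 links a day 7 library to a day 5 library. In all 4 libraries the cells were MEFs infected with separate pMXs retroviruses for Oct4, Klf4 and Sox2 and with a pSuper-puro retrovirus for a hairpin against luciferase (shLuc), which has no mouse target. All had polybrene during infection and puromycin selection that ended at day 1, and from day 0, when the virus was taken off, they grew in iCD1 medium. A day 7 culture therefore differs from a day 5 culture by its time in that medium and not by any agent. The same design was run with hairpins against the RNA m6A readers Ythdf2 (shYthdf2) and Ythdf3 (shYthdf3) and at days 1, 3, 5 and 7, so the time course held 24 libraries in 12 groups of 2. The labels do not say whether the 2 libraries of a group came from separate cultures or animals, so p-values measure the spread between these libraries.

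Reprogramming by these factors is known to pass through an early loss of fibroblast identity and a gain of epithelial genes, and through a late phase in which a minority of cells switch on the endogenous pluripotency genes. Glycolysis, the breakdown of glucose to pyruvate and lactate in the cytosol, is known to be raised early on this path and to be high in pluripotent cells. Interferons are secreted alarm proteins that act through cell surface receptors to induce antiviral genes, and pluripotent stem cells are known to respond to them weakly. In bulk RNA from a mixed culture, fewer cells of a type and less RNA per cell cannot be told apart.

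At day 7, against day 5, the control cultures had higher levels of genes of glucose uptake and glycolysis and lower levels of genes that interferon induces. Slc2a1, the glucose transporter GLUT1, averaged 3.39 times its day 5 level at day 7, and Ldha, which makes lactate, 2.53 times. Igfbp2, a secreted binding protein for insulin-like growth factors, was 10.3 times as high at day 7. Gbp2 and Gbp2b, guanylate-binding proteins that act against intracellular pathogens, were 6.38 and 7.31 times as high at day 5 as at day 7. Of the pluripotency genes, Tdgf1, listed at 0 in both day 5 libraries, passed the test. Nanog and Esrrb were higher in both day 7 libraries without passing it. The list of pluripotency markers was mixed, with 16 positive and 11 negative differences among 27 genes.

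Expression was deposited as TPM, a share of the library's transcripts corrected for their length. Differences are day 7 minus day 5 on log2(TPM + 1), a scale that understates the change of low genes, and a gene was called at a Benjamini-Hochberg adjusted p under 0.05 in limma's two-sided test over all 21303 genes that had 1 TPM or more in at least 2 of the 24 libraries. The test called 20 genes, 0.0939% of those tested. Of these 15 were higher at day 7 (0.0704%) and 5 lower (0.0235%). Of the 15 higher calls 7 (Elobl, Sct, Csta1 and 4 genes with model names) passed the filter only through the 2 shLuc day 7 libraries, so they had to differ and add no support. A fit with the replicate number as a block called 45 genes (0.211%), 24 higher (0.113%) and 21 lower (0.0986%), and all 20 genes were among them. The median difference over all genes was 0. The calls rest on every one of the 4 libraries. Without day 7 replicate 1 the test called 9 genes, of which 2 (Igfbp2 and Elobl) were among the 20, and without day 7 replicate 2 it called 0. Without day 5 replicate 1 it called 2 genes and without day 5 replicate 2 it called 0, none of them among the 20. The spread is shared with the other groups of the time course, and fits of the 8 shLuc libraries or of the 4 libraries alone called 2 genes each, again none of the 20. At an unadjusted p under 0.05 there were 923 genes with all libraries, 419 higher and 504 lower at day 7. That is fewer than this threshold would be expected to pass among 21303 genes if none differed.

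**Figure D1:**
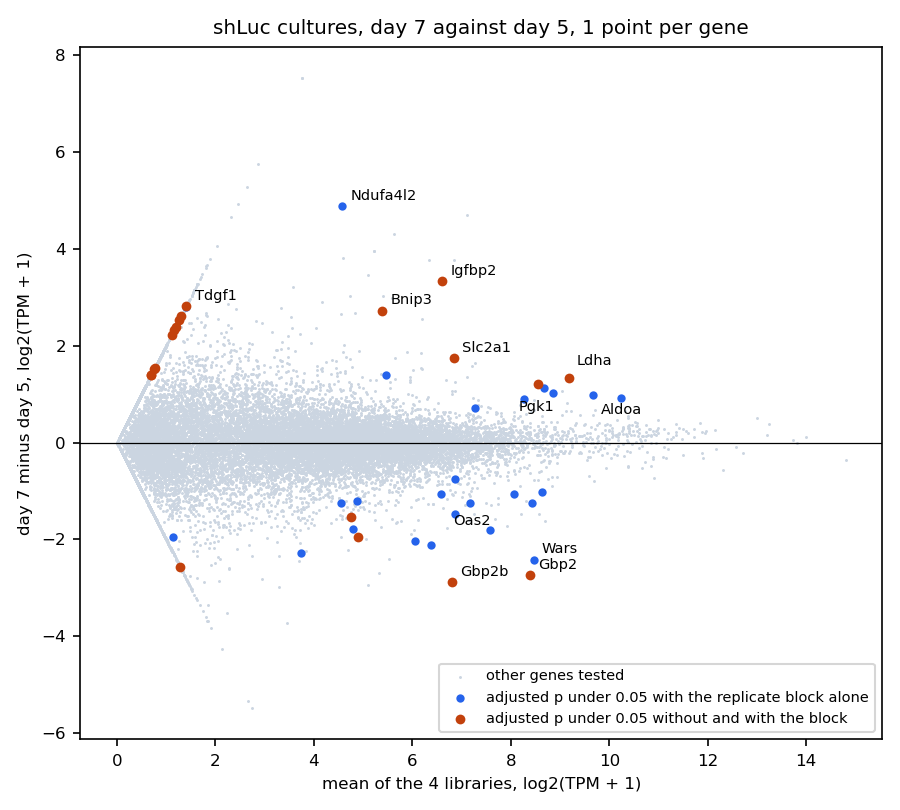
Each point is 1 of the 21303 genes tested. The x axis is its mean over the 4 shLuc libraries and the y axis is day 7 minus day 5, both as log2(TPM + 1). Red points passed the test with and without the replicate block, and blue points with the block alone. Most genes lie near 0, with glucose genes and Igfbp2 above the cloud and guanylate-binding proteins, Wars and other interferon-induced genes below it.

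The libraries numbered 1 and 2 differed in content on both days. Library 1 and library 2 listed 16151 and 14146 genes at 1 TPM or more at day 7, against 16056 and 13991 at day 5. Mitochondrial transcripts took 5.90% and 8.00% of TPM at day 7, against 6.25% and 10.7% at day 5, and replicates correlated at 0.910 at day 7 and 0.906 at day 5 over log2 values. The depth of the libraries is unknown, because TPM holds no read total. Ythdf2, the target of the hairpin in another arm, was at 56.3 and 34.3 TPM at day 7, against 61.9 and 36.8 TPM at day 5. Ythdf3 was at 41.1 and 21.2 TPM at day 7, against 39.75 and 19.04 TPM at day 5. Neither reader was called (adjusted p = 1 in limma for both), and no hairpin in these 4 libraries targets them.

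The glycolysis list held 22 genes, all of them tested. At day 7 2 of them were called higher, 6 with the replicate block, and none was called lower. Of all genes tested 0.0704% were called higher, and 0.113% with the block. Both day 7 libraries lay above both day 5 libraries for 15 of the 22, against 10.7% of all genes tested, and the list's median difference was 0.66, against 0 over all genes. Slc2a1 had 198.8 and 220.9 TPM at day 7, against 64.4 and 59.6 TPM at day 5. The day 7 libraries agree closely and lie far above both day 5 libraries, and the log2 difference was 1.74 (SE 0.244, adjusted p = 0.00961 by limma). Slc2a3, the glucose transporter GLUT3 that is typical of embryonic cells, had 76.0 and 66.5 TPM at day 7, against 28.2 and 24.6 TPM at day 5. It was called with the block alone (log2 difference 1.40, adjusted p = 0.0408, and 0.0914 without the block). Slc16a3, which exports lactate, had 109.4 and 129.5 TPM at day 7, against 10.9 and 17.4 TPM at day 5. Its difference of 3.02 (SE 0.60) was the largest of the list and passed in neither fit (adjusted p = 0.0914, and 0.0528 with the block).

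Ldha, lactate dehydrogenase A, had 981.0 and 856.5 TPM at day 7, against 378.4 and 349.0 TPM at day 5, and was called (log2 difference 1.33, SE 0.184, adjusted p = 0.00961 by limma). Pgk1, phosphoglycerate kinase, had 736.0 and 494.2 TPM at day 7, against 319.1 and 236.3 TPM at day 5. Its libraries differ between the numbers 1 and 2 on each day, and it passed with the block (log2 difference 1.13, adjusted p = 0.0028) and not without it (adjusted p = 0.407). Tpi1, triosephosphate isomerase, and Aldoa, aldolase A, were also called with the block alone. Tpi1 had 598.8 and 721.1 TPM at day 7, against 319.2 and 324.4 TPM at day 5 (log2 difference 1.03, adjusted p = 0.0183 with the block and 0.313 without). Aldoa had 1051 and 1246 TPM at day 7, against 502.6 and 664.8 TPM at day 5 (log2 difference 0.98, adjusted p = 0.00451 with the block and 0.54 without). The rest of the list was not called. Pfkl, the liver form of phosphofructokinase, had 125.9 and 121.1 TPM at day 7, against 63.5 and 28.7 TPM at day 5 (log2 difference 1.51, adjusted p = 0.213). The hexokinases, which take the first step of the pathway, had overlapping libraries. Hk2, hexokinase 2, was at 40.5 and 36.2 TPM at day 7, against 41.4 and 37.9 TPM at day 5, and Hk1 at 74.1 and 78.9 TPM, against 55.5 and 76.6 TPM. Eno1b, a near copy of the glycolytic enolase gene Eno1 on chromosome 18, was called with a difference of 1.205 (adjusted p = 0.033 by limma), and its reads cannot be told from those of Eno1 with certainty. Without the variance trend it lost its call (adjusted p = 0.110).

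The list of 20 genes known to be induced by low oxygen had 1 call, Bnip3, in both fits, against 0.0704% of all genes called higher and 0.113% with the block. Both day 7 libraries lay above both day 5 libraries for 10 of the 20 and below them for 1, against 10.7% and 11.1% of all genes tested. Bnip3, a mitochondrial protein that starts the removal of mitochondria, had 136.3 and 83.1 TPM at day 7, against 22.5 and 10.3 TPM at day 5. Both day 7 libraries are several times above the day 5 libraries, and the log2 difference was 2.72 (SE 0.439, adjusted p = 0.0312 by limma). Of the other members, Egln3, an oxygen sensor, had 52.5 and 61.4 TPM at day 7, against 18.7 and 11.5 TPM at day 5, and Vegfa, a vessel growth factor, 103.2 and 86.4 TPM, against 43.9 and 35.4 TPM. Neither passed (adjusted p = 0.175 and 0.678 by limma). Adm, another member, was at 2.61 and 4.56 TPM at day 7, against 4.28 and 6.22 TPM at day 5. The list's median difference was 0.56 and 0.21 without day 5 replicate 2. Ndufa4l2, outside this list and known as a hypoxia-induced relative of a respiratory chain subunit, was at 107.4 and 154.4 TPM at day 7, against 18.5 and 0 TPM at day 5, and was called with the block alone (log2 difference 4.88, adjusted p = 0.0403, and 0.0914 without).

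The promoters of 3 of these genes are shown because each holds the core ACGTG of the hypoxia response element, in capitals on either strand. The genes were chosen after their values were seen. The windows are the 250 bases before the start in the RefSeq table, build GRCm38.p6, printed 5′ to 3′ on the gene's strand. They lie at chr4:119108495-119108744 for Slc2a1 (plus strand), chrX:106186850-106187099 for Pgk1 (plus strand) and chr7:138909507-138909756 for Bnip3 (minus strand).
Slc2a1: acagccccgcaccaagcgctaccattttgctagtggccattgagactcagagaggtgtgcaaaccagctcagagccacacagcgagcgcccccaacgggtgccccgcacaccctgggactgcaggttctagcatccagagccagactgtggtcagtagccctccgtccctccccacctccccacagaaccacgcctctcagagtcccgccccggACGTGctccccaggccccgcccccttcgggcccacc
Pgk1: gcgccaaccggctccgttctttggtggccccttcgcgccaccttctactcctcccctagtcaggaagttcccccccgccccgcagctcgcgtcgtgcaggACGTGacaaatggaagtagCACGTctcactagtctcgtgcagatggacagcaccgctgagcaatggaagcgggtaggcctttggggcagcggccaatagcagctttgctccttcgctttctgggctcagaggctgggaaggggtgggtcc
Bnip3: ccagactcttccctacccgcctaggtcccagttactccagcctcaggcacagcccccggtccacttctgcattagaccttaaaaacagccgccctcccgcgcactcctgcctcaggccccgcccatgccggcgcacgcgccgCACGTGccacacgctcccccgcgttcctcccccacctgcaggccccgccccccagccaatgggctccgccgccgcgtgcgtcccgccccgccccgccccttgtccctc
The Slc2a1 window holds 1 match and the windows of Pgk1 and Bnip3 hold 2 each, and both Bnip3 matches lie within the single palindrome CACGTG, which other factors are known to bind. Among the 15 genes named as higher at day 7, 5 of the 11 with a promoter in the table have a match (Igfbp2, Bnip3, Slc2a1, Ldha and Pgk1), and so have 8 of 21 genes of the glycolysis list. The share was 16.6% over all 27025 promoters and 20.6% over those of the genes tested. A match is a description of the letters and not a binding site.

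Igfbp2 carried the largest difference among the calls without the block. It lies on chromosome 1 from 72824480 to 72852474. Its level was 294.7 and 322.1 TPM at day 7, against 30.6 and 29.3 TPM at day 5, a log2 difference of 3.32 (SE 0.423, adjusted p = 0.00606 by limma). The day 7 values are of the order seen in the finished cells, with 454.0 and 469.3 TPM in shLuc iPS cells, while shLuc MEFs had 0.20 and 0 TPM. Tdgf1, the Nodal co-receptor Cripto and a marker of pluripotent cells, had 5.54 and 6.64 TPM at day 7 and was listed at 0 in both day 5 libraries (log2 difference 2.82, adjusted p = 0.00961 by limma). It had been at 2.04 and 3.27 TPM at day 3, so the call rests on the 2 zeros of day 5, and its late step did not differ from its early step in the test (adjusted p = 0.241 by limma). In shLuc iPS cells it was at 335.1 and 330.8 TPM. Elobl, a gene related to elongin B by name, had 3.03 and 7.29 TPM at day 7 and was listed at 0 in both day 5 libraries (adjusted p = 0.0184 by limma, and 0.0571 at a pseudocount of 0.1). St6galnac2, a sialyltransferase, had 4.48 and 7.77 TPM at day 7 and was listed at 0 at day 5 (adjusted p = 0.0408 with the block and 0.0727 without).

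The other 8 calls higher at day 7 fell outside the rule for named genes, being low or without a gene name. Khdc3, an oocyte and early embryo gene, had 3.66 TPM in both day 7 libraries and was listed at 0 at day 5 (adjusted p = 0.0372 by limma). Sct, the hormone secretin, had 1.59 and 2.29 TPM at day 7, Csta1 1.97 and 1.31 TPM, and both were listed at 0 at day 5 (adjusted p = 0.0255 and 0.0372 by limma). The remaining 5 carry only model names, at 1.38 to 8.11 TPM at day 7 and at 0 at day 5. Gm17099 among them, like Khdc3, passed the filter through other libraries as well. Mif, a cytokine, and Phlda3, a target of p53, were called with the block alone. Mif had 1328 and 2074 TPM at day 7, against 759.6 and 1009 TPM at day 5 (log2 difference 0.92, adjusted p = 0.0164 with the block and 0.926 without). Phlda3 had 205.8 and 192.2 TPM at day 7, against 129.6 and 111.5 TPM at day 5 (log2 difference 0.72, adjusted p = 0.0228 with the block and 0.366 without).

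**Figure D2:**
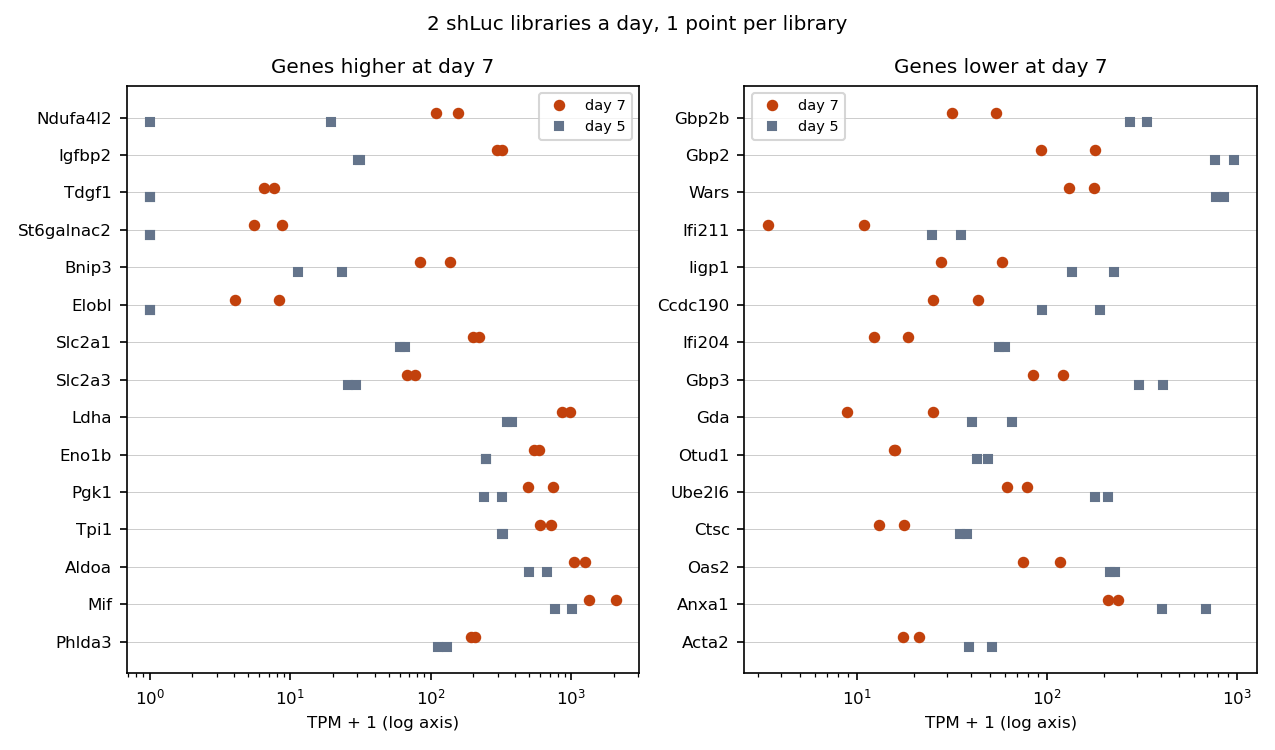
Each row is a gene, and each point 1 shLuc library, with the 2 day 7 libraries as red circles and the 2 day 5 libraries as grey squares, on a log axis of TPM + 1. On the left are the 15 named genes higher at day 7 and on the right the 15 lower at day 7, ordered by the size of the difference. In every row the day 7 and day 5 libraries do not overlap, which the naming rule required.

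The interferon-inducible GTPases, which attack membranes around intracellular pathogens, were the list with the most genes called lower. Of 15 tested 2 were called lower, 5 with the block, and none higher. Of all genes tested 0.0235% were called lower, and 0.0986% with the block. The day 7 and day 5 libraries did not overlap for 14 of the 15, all lower at day 7, against 11.1% of all genes tested. The median difference was -1.66, and -1.21 without day 7 replicate 2. Gbp2 had 179.1 and 92.4 TPM at day 7, against 964.1 and 767.3 TPM at day 5 (log2 difference -2.73, SE 0.462, adjusted p = 0.033 by limma). Gbp2b had 52.98 and 30.60 TPM at day 7, against 336.1 and 274.5 TPM at day 5 (log2 difference -2.88, SE 0.480, adjusted p = 0.033 by limma). Both genes fall below both day 5 libraries by a wide margin, and both lose their call at a pseudocount of 0.1, with log2 differences of nearly the same size. Gbp3 had 121.4 and 83.3 TPM at day 7, against 410.2 and 304.2 TPM at day 5, and was called with the block (log2 difference -1.80, adjusted p = 0.0261, and 0.111 without).

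The immunity-related GTPases belong to the same list. Iigp1 had 57.5 and 26.6 TPM at day 7, against 224.1 and 134.5 TPM at day 5 (log2 difference -2.12, adjusted p = 0.0481 with the block and 0.104 without). Irgm1, which steers the other members, had 333.2 and 228.2 TPM at day 7, against 627.1 and 502.1 TPM at day 5 (log2 difference -1.02, adjusted p = 0.0431 with the block and 0.437 without). Tgtp1 and Tgtp2 are near copies whose reads may be split between them. Tgtp1 was at 272.3 and 206.5 TPM at day 7, against 820.0 and 648.5 TPM at day 5, and was not called (adjusted p = 0.908). The member with overlapping libraries was Gbp9, at 60.9 and 17.5 TPM at day 7, against 102.5 and 44.7 TPM at day 5.

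Gbp3, Gbp2b and Gbp2 lie side by side on chromosome 3, between 142560016 and 142638008 in GRCm38.p6. Their promoters are shown because each holds a match to the letters of the interferon-stimulated response element. These were searched as GAAA, 2 bases of any kind and GAAA again, and are in capitals on either strand. These genes too were chosen after their values were seen. The windows stop at the start in the RefSeq table or, for Gbp2b and Gbp3, where the annotated gene begins. They lie on the plus strand at chr3:142559794-142560015 for Gbp3, chr3:142594597-142594815 for Gbp2b and chr3:142620413-142620662 for Gbp2.
Gbp3: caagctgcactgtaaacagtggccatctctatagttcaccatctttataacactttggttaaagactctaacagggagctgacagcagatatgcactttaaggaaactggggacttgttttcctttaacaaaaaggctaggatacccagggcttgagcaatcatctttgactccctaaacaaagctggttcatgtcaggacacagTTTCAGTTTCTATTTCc
Gbp2b: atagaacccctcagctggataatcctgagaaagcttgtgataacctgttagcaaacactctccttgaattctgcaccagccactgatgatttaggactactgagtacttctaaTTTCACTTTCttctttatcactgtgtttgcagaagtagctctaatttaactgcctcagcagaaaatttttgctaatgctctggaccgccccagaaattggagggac
Gbp2: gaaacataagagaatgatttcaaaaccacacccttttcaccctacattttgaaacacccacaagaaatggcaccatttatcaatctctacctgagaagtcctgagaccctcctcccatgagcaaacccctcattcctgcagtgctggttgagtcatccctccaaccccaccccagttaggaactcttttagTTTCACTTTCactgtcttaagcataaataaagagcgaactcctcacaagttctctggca
Gbp2b and Gbp2 have 1 match each, with the same 10 letters, and Gbp3 has 2 that overlap. As above, a match describes letters and not a binding site. The GTPase genes include near copies such as Tgtp1 and Tgtp2, so their promoters are not independent of each other. A match was in 11 of the 12 GTPase genes that have a promoter, within 250 bases of the start, and in 9 of the 22 such genes of the interferon-stimulated list, against 3.04% of all promoters and 2.71% of those of the genes tested. The letters TTCNNNGAA of the gamma-activated site, the element for interferon gamma, are in 6 of the 12 GTPase promoters and 4 of the 22 others, against 7.18% of all promoters.

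Of the 33 other interferon-stimulated genes 32 had differences below 0. Not a single member was called in the fit without the block, in which 26 had an unadjusted p under 0.05, against 923 of all 21303 genes. With the block 1 was called lower, against 0.0986% of all genes tested. The day 7 libraries lay below both day 5 libraries for 29 of the 33, against 11.1% of all genes tested, and the median difference was -1.21. Oas2, a sensor of viral RNA, was the call. It had 74.2 and 116.8 TPM at day 7, against 214.2 and 228.1 TPM at day 5 (log2 difference -1.24, SE 0.321, adjusted p = 0.0151 with the block and 0.313 without). Isg15, the ubiquitin-like modifier, had 114.7 and 178.0 TPM at day 7, against 366.0 and 275.8 TPM at day 5 (log2 difference -1.15, adjusted p = 0.359). Ifit3, an antiviral protein that binds foreign RNA, had the largest difference of the list. It was at 21.0 and 10.2 TPM at day 7, against 152.6 and 66.3 TPM at day 5, a difference of -2.70 that passed in neither fit (adjusted p = 0.0914, and 0.0512 with the block). Irf7, the transcription factor that amplifies the response, was at 59.5 and 61.3 TPM at day 7, against 155.7 and 155.0 TPM at day 5 (log2 difference -1.35, adjusted p = 0.123). The member higher at day 7 was Ifi27, at 68.3 and 78.1 TPM at day 7, against 50.1 and 59.1 TPM at day 5.

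Of the other lower genes outside these lists, Wars, Ifi204, Ube2l6 and Ifi211 are known to be induced by interferon. Otud1, Gm11468, Ccdc190, Gda and Ctsc are given with them only because they were called lower. Wars, which charges tryptophan onto its tRNA, had 177.2 and 129.9 TPM at day 7, against 854.8 and 774.7 TPM at day 5 (log2 difference -2.42, SE 0.459, adjusted p = 0.0131 with the block and 0.0727 without). Ifi204, a DNA sensor, had 17.6 and 11.3 TPM at day 7, against 59.1 and 55.2 TPM at day 5, and was called in both fits (log2 difference -1.94, adjusted p = 0.033 by limma without the block). Ube2l6, the enzyme that hands Isg15 on, had 78.1 and 60.8 TPM at day 7, against 178.0 and 208.6 TPM at day 5 (log2 difference -1.47, adjusted p = 0.0228 with the block and 0.0523 without). Otud1, a deubiquitinase, had 14.9 and 14.6 TPM at day 7, against 41.8 and 47.9 TPM at day 5, and was called in both fits (log2 difference -1.54, adjusted p = 0.033 by limma without the block). It lost its call under median-ratio scaling (adjusted p = 0.0752) and without the variance trend (0.0594). The fifth gene called lower was Gm11468, a long noncoding RNA listed at 0 in both day 7 libraries, against 5.21 and 4.64 TPM at day 5 (adjusted p = 0.0372 by limma). Ifi211, of the same family as Ifi204, had 9.96 and 2.39 TPM at day 7, against 34.2 and 23.9 TPM at day 5 (log2 difference -2.28, adjusted p = 0.0477 with the block and 0.381 without). Further named genes called with the block alone were Ccdc190 (log2 difference -2.03), Gda, a guanine deaminase (-1.79), and Ctsc, the protease cathepsin C (-1.25).

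The genes of MHC class I presentation display peptides to T cells. Their median difference was -0.59, and 16 of 18 differences were below 0. With the block 1 gene was called lower, against 0.0986% of all genes tested. Tapbp, the tapasin that loads peptides, had 170.1 and 196.9 TPM at day 7, against 350.3 and 422.8 TPM at day 5 (log2 difference -1.07, SE 0.239, adjusted p = 0.0164 with the block and 0.158 without). B2m, the light chain, had 3846 and 4517 TPM at day 7, against 5041 and 7506 TPM at day 5, and was not called. The heavy chain H2-K1 was at 1952 and 1988 TPM at day 7, against 2490 and 2339 TPM at day 5, also without a call. Psmb10, a subunit of the immunoproteasome, had the largest difference of the list, with 58.8 and 111.1 TPM at day 7, against 278.6 and 216.3 TPM at day 5 (log2 difference -1.59, adjusted p = 0.316). H2 genes share sequence, so their single values are uncertain.

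**Figure D3:**
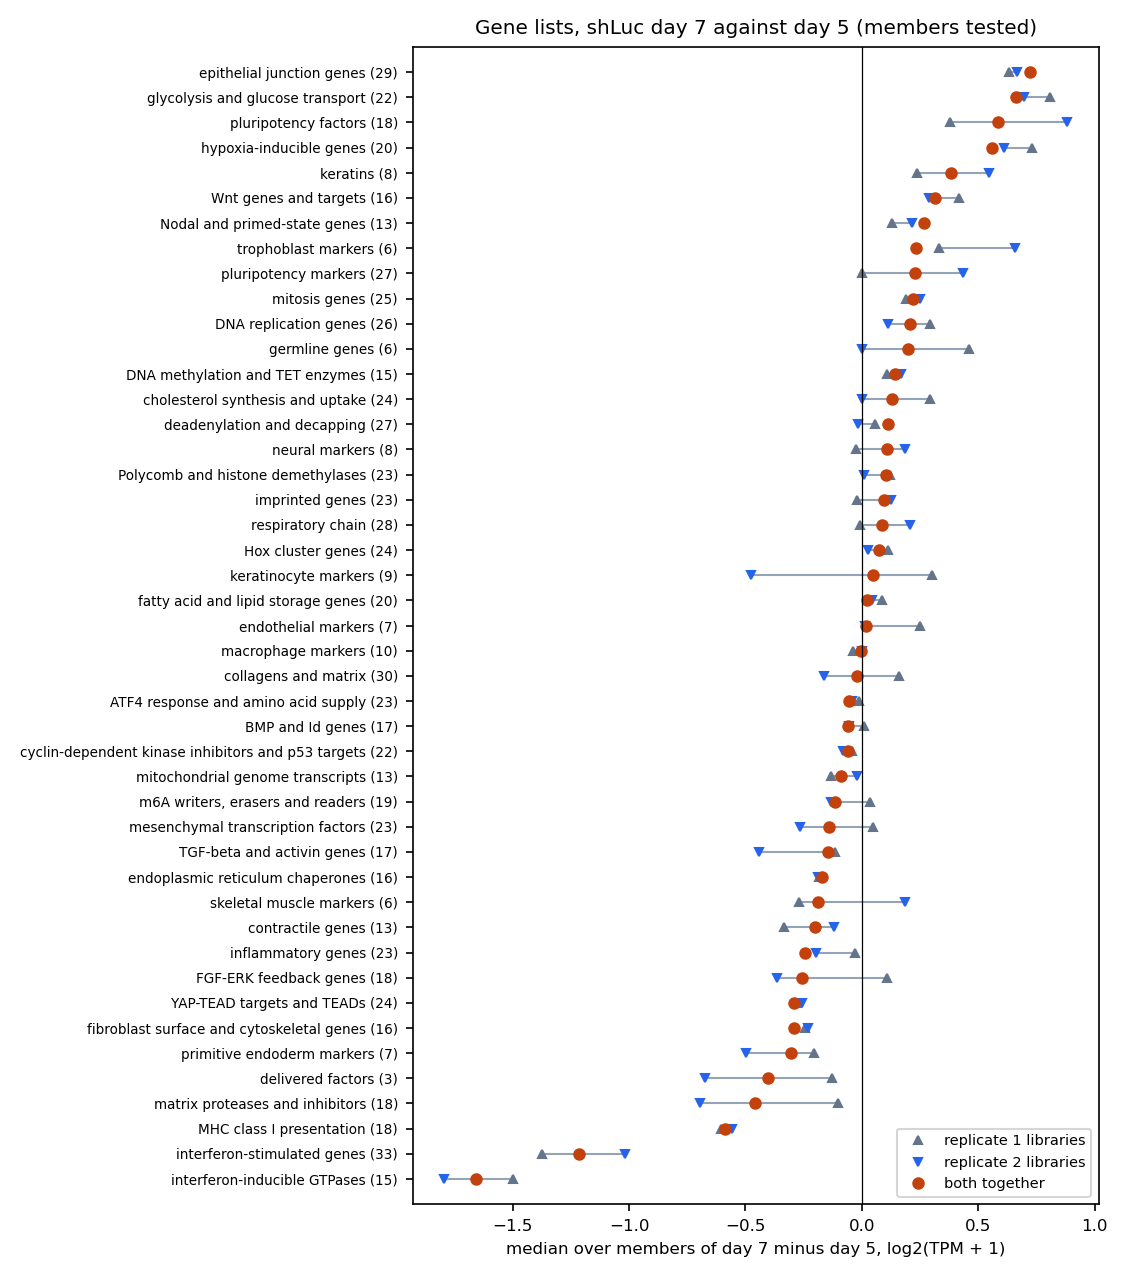
Each row is 1 of the 45 gene lists, with the number of members tested in brackets. The x axis is the median over members of day 7 minus day 5 in the shLuc arm, as log2(TPM + 1), with the median for the replicate 1 pair and the replicate 2 pair as triangles and that of both together as a red circle. The 2 interferon lists lie lowest at -1.66 and -1.21, MHC class I at -0.59, and the epithelial and glycolysis lists highest at 0.72 and 0.66.

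The pluripotency lists were read for how far the cultures had come. Of 18 transcription factors of the pluripotent state tested, 15 had positive differences and none was called in either fit, with a median of 0.59. Both day 7 libraries lay above both day 5 libraries for 9 of them and below for 2, against 10.7% and 11.1% of all genes tested. Nanog, a core factor, was at 15.98 and 32.35 TPM at day 7, against 3.06 and 5.61 TPM at day 5 (log2 difference 2.20, SE 0.700, adjusted p = 0.608). Esrrb was at 3.17 and 5.83 TPM at day 7, against 0.63 and 0.49 TPM at day 5 (log2 difference 1.78, adjusted p = 0.353). Both are low beside shLuc iPS cells, which had 503.8 and 494.6 TPM of Nanog and 317.9 and 329.7 TPM of Esrrb. Lin28a, an RNA-binding protein of stem cells, was at 4.17 and 7.68 TPM at day 7, against 0.47 and 0 TPM at day 5. Sall4 was at 18.4 and 15.2 TPM at day 7, against 7.67 and 9.26 TPM at day 5 (log2 difference 0.91, adjusted p = 1 for both genes).

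Other markers of the state were mixed. Of 27 tested 16 had positive differences and 11 negative ones. Libraries did not overlap for 9 that were higher and 7 that were lower at day 7, against 10.7% and 11.1% of all genes tested. Tdgf1 was the call, against 0.0704% of all genes called higher. The whole list summed to 1625 and 1766 TPM at day 7, against 1823 and 2945 TPM at day 5, with Trh, a hormone precursor, at 581.2 and 671.7 TPM, against 749.0 and 1574 TPM. Dppa5a was at 34.0 and 36.4 TPM at day 7, against 1.48 and 5.26 TPM at day 5 (log2 difference 3.20, SE 0.71, adjusted p = 0.158), while iPS cells had 3146 and 3092 TPM. Alpl, the alkaline phosphatase used to stain colonies, was at 55.3 and 107.5 TPM at day 7, against 69.4 and 76.0 TPM at day 5, with libraries that overlap (log2 difference 0.09, adjusted p = 1). Slc7a3, an amino acid transporter, was at 56.5 and 34.4 TPM at day 7, against 104.2 and 98.1 TPM at day 5 (log2 difference -1.18, adjusted p = 1). The 6 markers used to check the cell type, which are not this list, summed to 87.8 and 109.0 TPM at day 7, against 23.4 and 26.2 TPM at day 5, and to 4488 and 4447 TPM in iPS cells.

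The delivered factors stayed high on both days, and TPM cannot separate viral from endogenous transcripts. Pou5f1, which encodes Oct4, was at 1675 and 1318 TPM at day 7, against 2624 and 2344 TPM at day 5 (log2 difference -0.74, SE 0.381, adjusted p = 1). The day 7 libraries lie below both day 5 libraries. Sox2 was at 1020 and 869.1 TPM at day 7, against 990.5 and 1381 TPM at day 5, and Klf4 at 2181 and 981.9 TPM, against 2387 and 1569 TPM. Their libraries overlap, and none of the 3 was called.

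The epithelial junction list had a median of 0.72, with 23 of 29 differences above 0 and no call in either fit. Both day 7 libraries lay above both day 5 libraries for 17 of the 29 and below for 1, against 10.7% and 11.1% of all genes tested. Cldn3, a tight junction claudin, was at 39.4 and 52.0 TPM at day 7, against 15.6 and 10.2 TPM at day 5 (log2 difference 1.76, adjusted p = 0.552). Epcam, an adhesion protein of epithelia and stem cells, was at 184.4 and 153.9 TPM at day 7, against 100.4 and 63.3 TPM at day 5 (log2 difference 1.07, adjusted p = 1). Cdh1, E-cadherin, was at 52.5 and 69.9 TPM at day 7, against 45.7 and 52.9 TPM at day 5 (log2 difference 0.30, adjusted p = 1).

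The fibroblast markers were far below the MEF level on both days. The 6 fibroblast markers summed to 430.7 and 433.3 TPM at day 7, against 469.5 and 435.8 TPM at day 5, and to 3904 and 3862 TPM in shLuc MEFs. Collagens and matrix genes split evenly, 15 above and 15 below 0, with a median of -0.02 and no call. The other fibroblast lists had more negative differences, with 11 of 13 contractile genes (median -0.20), 15 of 18 matrix proteases and inhibitors (-0.46), 11 of 16 surface and cytoskeletal genes (-0.29) and 15 of 23 mesenchymal transcription factors (-0.14). Acta2 of the contractile genes was the call in these lists, lower with the block, against 0.0986% of all genes tested. Col1a1 was at 96.3 and 115.4 TPM at day 7, against 69.9 and 77.9 TPM at day 5, and Col1a2 at 169.5 and 163.7 TPM, against 229.8 and 194.6 TPM. Thy1, a surface marker of fibroblasts, was at 52.6 and 89.1 TPM at day 7, against 44.0 and 54.3 TPM at day 5. Snai2, a repressor of epithelial genes, was at 3.86 and 0.74 TPM at day 7, against 4.53 and 6.51 TPM at day 5. None of these genes was called (adjusted p = 1 for each). Single cytoskeletal and secreted genes were called with the block alone. Acta2, smooth muscle actin, had 16.5 and 20.1 TPM at day 7, against 37.8 and 50.5 TPM at day 5 (log2 difference -1.22, adjusted p = 0.0431 with the block and 0.313 without). Anxa1, a membrane-binding protein, had 236.0 and 210.2 TPM at day 7, against 691.1 and 401.3 TPM at day 5 (log2 difference -1.24, adjusted p = 0.00408 with the block and 0.637 without). Ccl7, a chemokine, had 59.5 and 73.1 TPM at day 7, against 95.3 and 199.2 TPM at day 5 (log2 difference -1.05, adjusted p = 0.0209 with the block and 0.977 without).

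No marker of the other cell types checked was called. Macrophage markers summed to 23.5 and 49.6 TPM at day 7, against 23.7 and 47.5 TPM at day 5. Nearly all of it was Laptm5, at 18.0 and 28.5 TPM against 18.5 and 28.4 TPM, and Cd68, at 5.34 and 20.8 TPM against 4.69 and 18.6 TPM. Adgre1 and Tyrobp were at 0 in all 4 libraries. Endothelial markers summed to 25.5 and 30.4 TPM at day 7, against 38.6 and 37.5 TPM at day 5, nearly all of it Tek, with Emcn at 0. The 4 skeletal muscle markers checked summed to at most 1.08 TPM and the 4 trophoblast markers to at most 1.68 TPM in these libraries. Lists of 10 genes each summed higher. The skeletal muscle list had 127.95 and 121.09 TPM at day 7, against 48.97 and 34.9 TPM at day 5. Of its 6 genes tested 2 differences were positive and 3 negative. The trophoblast list had 30.71 and 27.67 TPM, against 19.72 and 12.62 TPM, with 5 of 6 positive. The 4 neural markers checked summed to 33.12 and 58.65 TPM at day 7, against 38.82 and 46.72 TPM at day 5. The neural list of 10 genes had 125.81 and 130.19 TPM, against 128.04 and 103.58 TPM.

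The place of this step in the whole course was tested by comparing it with the step from day 1 to day 3 in the same arm, which shares no library with it. The difference between the steps was called for 261 genes (1.23%), 33 with a more positive late step (0.155%) and 228 with a more negative one (1.07%), and for 528 (2.48%) with the block. Of the 15 named genes lower at day 7 it was called for 11, or 13 with the block, and of the 15 named genes higher for 6, or 10 with the block. These genes were picked for the late step, which enters the difference. Gbp2 was at 4.55 and 2.16 TPM at day 1, 554.1 and 344.7 at day 3, 964.1 and 767.3 at day 5, and 179.1 and 92.4 at day 7. Wars was at 79.6 and 67.6 TPM at day 1, 842.8 and 319.7 at day 3, 854.8 and 774.7 at day 5, and 177.2 and 129.9 at day 7. Gbp2 was thus lowest at day 1 and highest at day 5. The median difference from day 1 to day 3 was 5.95 for the GTPases and 3.72 for the other interferon-stimulated genes, and the summed GTPase level of 1935 and 1206 TPM at day 7 is still far above the 46.6 and 33.4 TPM of day 1. In shLuc iPS cells the GTPases summed to 5.63 and 6.21 TPM. Ldha took another course, at 491.4 and 548.7 TPM at day 1, 270.7 and 216.2 at day 3, 378.4 and 349.0 at day 5, and 981.0 and 856.5 at day 7. Its late step exceeded its early step by 2.43 (SE 0.26, adjusted p = 6.0e-05 by limma).

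**Figure D4:**
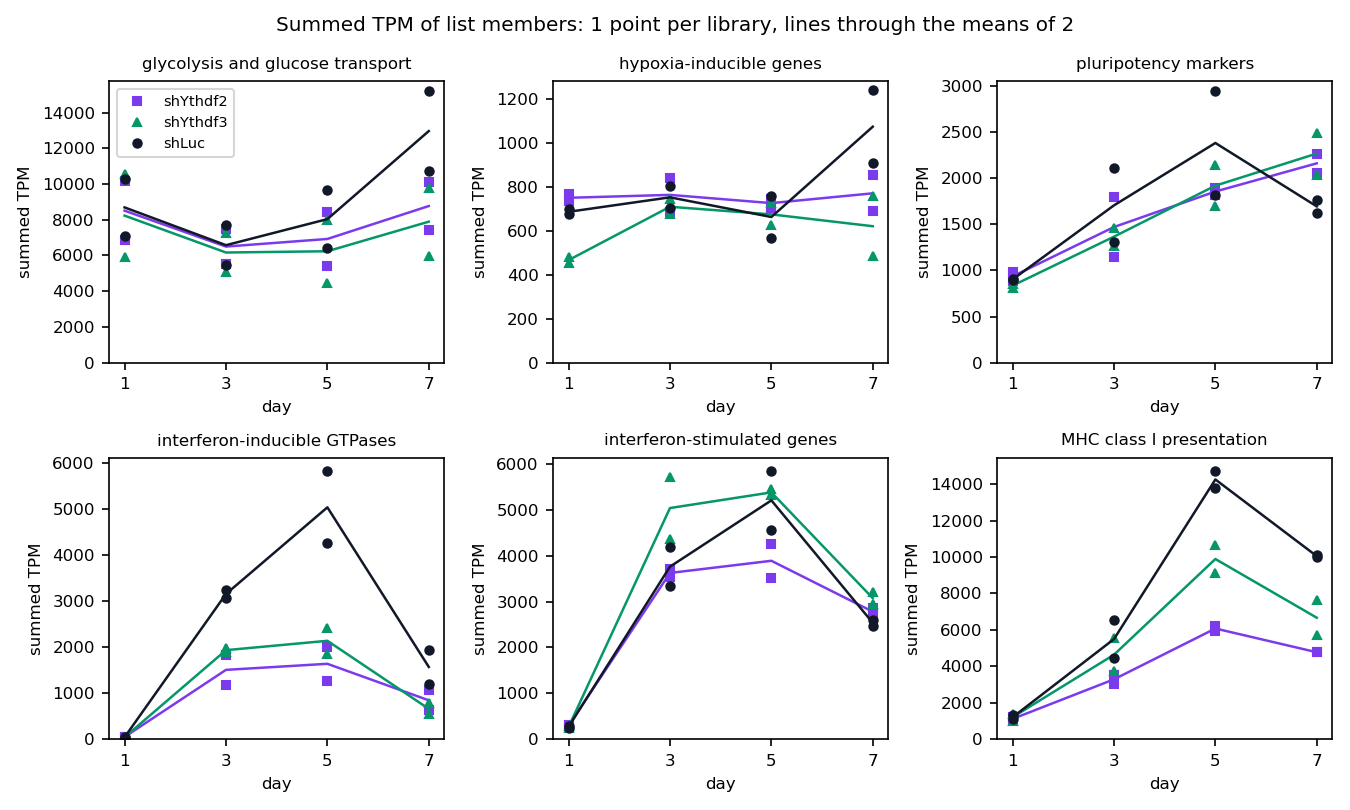
Each panel sums the TPM of the members of a list, with 1 point per library at days 1, 3, 5 and 7 and a line through the mean of each arm (shYthdf2 squares, shYthdf3 triangles, shLuc circles). In the shLuc arm the interferon and MHC class I sums peak at day 5, and the glycolysis sum is highest at day 7, at 10721 and 15201 TPM against 6399 and 9666 TPM at day 5.

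In the knockdown arms the same 2 days were measured in separate libraries. The step called 17 genes in shYthdf2 (0.0798%) and 9 in shYthdf3 (0.0422%), or 16 there with the block (0.0751%). Of the 15 named genes higher at day 7 in shLuc, 13 had the same sign in shYthdf2 and 13 in shYthdf3, with medians of 0.65 and 0.47, against 1.40 in shLuc. Of the 15 lower genes 14 and 15 had the same sign, with medians of -0.97 and -1.13, against -1.80 in shLuc. The shLuc medians are large in part because the genes were picked in that arm, and the share of all genes with the same sign was not counted. The glycolysis list had medians of 0.42 in shYthdf2 and 0.23 in shYthdf3, against 0.66 in shLuc. For the list of genes induced by low oxygen they were 0.20 and -0.03, against 0.56. For the GTPases they were -0.97 and -1.70, against -1.66. Tested over all genes, the step differed from that in shLuc for 1 gene in shYthdf2 (0.00469%) and for 0 in shYthdf3 (limma, adjusted p, with and without the block). The 1 gene, Gm16572, passed the filter only through the 2 shYthdf2 day 7 libraries. There were 426 and 541 genes at an unadjusted p under 0.05, again fewer than that threshold would be expected to pass if none differed. Igfbp2 had 130.2 and 100.2 TPM at day 7 in shYthdf2, against 12.4 and 12.9 TPM at day 5, and was called there too (log2 difference 3.08, adjusted p = 0.0104 by limma). In shYthdf3 it had 35.8 and 34.0 TPM at day 7, against 6.5 and 11.06 TPM at day 5 (log2 difference 1.92, adjusted p = 0.180). Slc2a1 had 170.2 and 134.4 TPM at day 7 in shYthdf2, against 90.8 and 82.3 TPM at day 5, and 71.9 and 87.8 TPM at day 7 in shYthdf3, against 47.8 and 54.5 TPM at day 5. Its step minus that in shLuc was -0.94 in shYthdf2 and -1.11 in shYthdf3 (SE 0.345 for each), and neither difference passed (adjusted p = 1 by limma). Gbp2 had 37.3 and 27.4 TPM at day 7 in shYthdf2, against 101.6 and 59.4 TPM at day 5, and 37.7 and 24.5 TPM at day 7 in shYthdf3, against 155.0 and 132.7 TPM at day 5. Its day 5 levels in both knockdown arms lie far below those of shLuc.

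**Figure D5:**
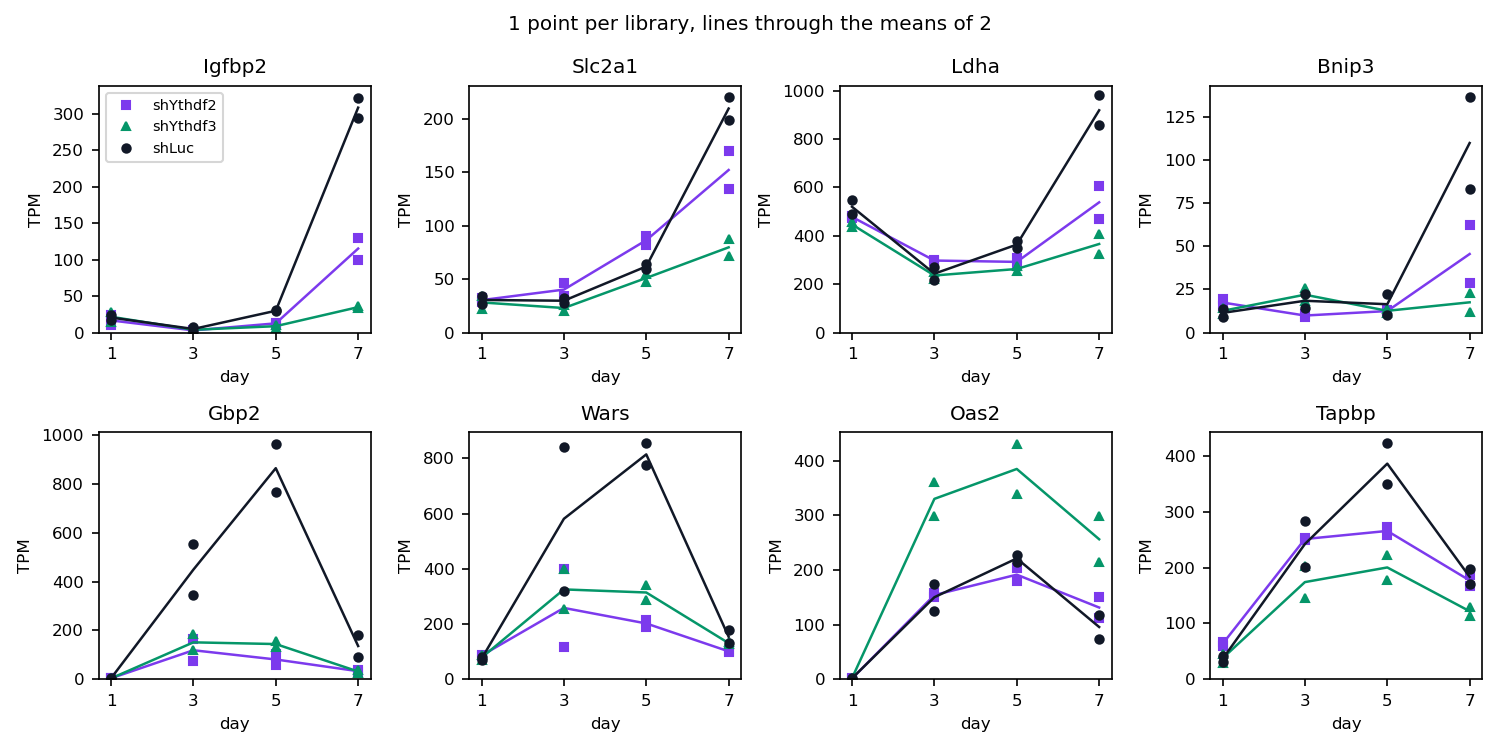
TPM of 8 genes at days 1, 3, 5 and 7, with 1 point per library and a line through the mean of each arm (shYthdf2 squares, shYthdf3 triangles, shLuc circles). Igfbp2, Slc2a1, Ldha and Bnip3 are highest in the shLuc libraries of day 7, and Gbp2, Wars, Oas2 and Tapbp are lower at day 7 than at day 5 in all 3 arms.

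Accessible chromatin was deposited as 1 peak list a day, with positions and no height, so it could be described and not tested. The shLuc list held 51694 peaks at day 7 and 59861 at day 5. Of the day 7 peaks 10027 (19.4%) overlapped no day 5 peak by 1 base, and of the day 5 peaks 19137 (32.0%) overlapped no day 7 peak. The day 7 list was shorter in all, covering 14.3 Mb with a median width of 215 bases, against 18.8 Mb and 246 bases at day 5. Of the 13000 genes tested that have a start in the RefSeq table, 78.7% had a peak within 1000 bases of it on both days. A further 1.71% had one at day 7 alone and 2.76% at day 5 alone, and 16.87% had none on either day. The genes called without the block had no peak of 1 day alone. Of 11 called higher 5 had a peak on both days and 6 on neither. Among those 6, Elobl, Csta1, Gm15767 and Gm16069 passed the expression filter only through the shLuc day 7 libraries, so they add no support. Of 4 called lower 3 had a peak on both days and 1 on neither. Igfbp2, Slc2a1, Ldha, Bnip3, Gbp2 and Otud1 had a peak at the start on both days, and Tdgf1, Elobl and Gbp2b on neither day. Col1a2 and Col3a1, collagen genes, had one at day 5 alone, while the collagen genes Col4a1 and Col5a1 had one on both days. Sparc, a matrix gene, had one at day 7 alone. The pluripotency genes were mixed as well. Nanog and Lin28a had none, Nr5a2 and Nr0b1 had one at day 5 alone, and Esrrb, Sox2 and Zfp42 on both days.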

How the data were processed

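Transcript levels were deposited by the authors as TPM per gene and library (50692 genes). The submitters' processing notes name RSEM, Bowtie2, SAMtools, MACS2, deepTools and the build mm10, with no roles or versions. Accessible sites were deposited as peak positions, 1 list a day, and the sources used here do not say whether libraries were pooled. The 21303 genes reaching 1 TPM in 2 or more of the 24 libraries were fitted as log2(TPM + 1) over 12 groups with limma 3.58.1 (R 4.3.3, eBayes with a trend, two-sided, Benjamini-Hochberg adjustment). The fit had 12 residual degrees of freedom, and 11 with the replicate block. Libraries of the same number deviated together, with correlations of 0.276 to 0.497 over all pairs of groups. The numbers were taken as pairs in the block fit and in the medians by pair, and the main fit did not use them. The method was tested on simulated data with independent noise in each library and changes planted only in genes of higher level. That test did not cover deviations shared by libraries of the same number, or true changes of low genes. The members and the 45 gene lists were chosen with earlier results of these data known. Named genes were the up to 15 largest calls each way of 5 TPM or more whose libraries did not overlap, filled from the block fit, with called list members and a set of markers. A spike-in table of 24 columns matched no sample and was not used. 27 symbols stored as dates were restored. Alternatives changed the pseudocount, filter, scaling, libraries fitted, trend and block, and left out each library. The values of 1 list member are not reported here.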

Additional observations from a re-analysis of the deposited data

Results flagged for a closer look

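1 gene had a step from day 5 to day 7 that differed between arms in the test of that difference. Gm16572, a gene with a model name and no position in the table used, was at 5.93 and 9.63 TPM at day 7 in shYthdf2 and listed at 0 at day 5 there. It was listed at 0 in all shLuc libraries of both days. The step in shYthdf2 minus that in shLuc was 3.10 on the log2(TPM + 1) scale, and it was called. The gene was at 0 in the other 22 time-course libraries and passed the filter only through the 2 in which it was seen, so it had to differ, and the call adds no support. That test called 0 genes at a pseudocount of 0.1, and 0 without either shLuc day 7 library.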

How the results depend on the processing

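The number of genes called at day 7 against day 5 depends on the fit. It was 20 (15 higher, 5 lower) as reported, 35 with no filter (25 and 10), 10 with a filter of 5 TPM (6 higher), 2 in fits of the 8 shLuc libraries or of the 4 libraries alone (2 higher, 0 lower in each), and 45 with the replicate block (24 and 21). Lower calls numbered 8 under median-ratio scaling and 9 with no trend. Higher calls made up 75% of the calls, against 53.3% with the block, 60% at 5 TPM and 66.7% under median-ratio scaling. The 75% is raised by the 7 of 15 higher calls that passed the filter only through shLuc day 7 and had to be higher. Leaving out 1 library gave 0 to 9 calls, 0 to 8 higher and 0 to 1 lower, with the lone library assumed to vary like the other groups. The test of shYthdf2 against shLuc called 1 gene, 0 at a pseudocount of 0.1, 24 with no filter, 0 at 5 TPM and 0 to 3 without 1 library. That of shYthdf3 called 0, 17 with no filter, 1 with no trend and 0 to 2 without 1 library. The late minus early step called 261, 528 with the replicate block, 115 in the 8 libraries and 169 to 251 without 1 library. The direction reversed for the log2 change of Tead2 without mitochondrial transcripts (-0.00379) and, without day 5 replicate 1, for Tead2 (-0.02) and Ythdf2 (0.25). Over the 4 libraries left out in turn the log2 differences ran from -0.98 to 0.17 for Klf4, -0.39 to 0.56 for Alpl, -0.25 to 0.29 for Tead2, -0.40 to 0.59 for Ythdf1, -0.48 to 0.25 for Ythdf2 and -0.42 to 0.61 for Ythdf3. They reversed without day 5 replicate 2 for Ythdf1 (-0.40) and Ythdf3 (-0.42), without day 7 replicate 1 for Ythdf1 (-0.34) and Ythdf3 (-0.37), and without day 7 replicate 2 for Klf4 (0.17), Alpl (-0.39), Tead2 (-0.25) and Ythdf2 (0.23). Peaks of day 7 alone numbered 16729 when 50% of a peak had to overlap. Within 2500 bases of a start, 1 gene called higher had a peak at day 7 alone (Elobl), 1 at day 5 alone (Tdgf1) and 3 on neither day. The causes were not tested.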

Other observations

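Of 26 DNA replication genes 22 had positive differences, with a median of 0.21, and of 25 mitosis genes 22, with a median of 0.22, and none of either list was called. Over all genes 9502 of 21303 differences were positive. Endoplasmic reticulum chaperones had 15 of 16 differences below 0, with a median of -0.17, and targets of YAP and TEAD factors 16 of 24, with a median of -0.29, again with no call.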
